A study of Mus musculus with 38 samples.

Results

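The cyclin-dependent kinase (CDK) inhibitors are a set of 7 genes of the 21705 genes measured, chosen by name as the INK4 family (Cdkn2a, Cdkn2b, Cdkn2c and Cdkn2d) and the CIP/KIP family (Cdkn1a, Cdkn1b and Cdkn1c). CDKs paired with cyclins drive the cell cycle, partly by phosphorylating the retinoblastoma (RB) proteins, which releases E2F transcription factors. INK4 proteins bind CDK4 and CDK6 and keep D-type cyclins from activating them, while CIP/KIP proteins bind cyclin-CDK complexes more broadly. Cdkn2a also encodes ARF, from its own first exon and a different reading frame, and ARF stabilises p53 by holding back its ubiquitin ligase MDM2. The p53 protein in turn activates Cdkn1a.

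RNA sequencing covered 38 libraries of mouse kidney origin in 10 groups. MYC mice (Ksp-rtTA; Tet-O-MYC) carry a doxycycline (Dox)-inducible MYC transgene whose activator is driven in renal tubule cells by the Ksp promoter. VM mice carry in addition KspCre-ERT2 and floxed Vhl, which tamoxifen deletes in the same cells, and VIM mice are further Ink4a/Arf-/- in the germline. Tumours came from MYC mice (3 libraries), VM mice (3) and VIM mice (3), all kept on Dox, and were set against 5 wild type normal kidneys given vehicle, 3 titled KT and 2 titled B6. The labels give no ages. A cell line from each genotype, MYC-2983, VM-3055 and VIM-3039, was grown with Dox at 2 µg per ml or after Dox was withdrawn, and collected 24 h after plating, with 4 libraries per line and condition. The line numbers of the VM and VIM cells come from the study's methods. Because each genotype was represented by a single line, line and genotype cannot be told apart. Of the MYC tumour libraries, replicates 2 and 3 both carry the number 2983 and were taken as 1 mouse, so that group has 2 mice. The MYC line has the same number, and VM tumour replicate 2 carries the number of the VM line. Nothing states that the 4 libraries of a cell group were separate cultures, so p-values there measure only the spread between these libraries, which may be technical.

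Each value is the authors' gene-level RSEM estimate scaled so that a library's upper quartile is 1000, and is called a unit below. One read was worth so little that 3 reads, the floor used here, came to between 1.16 and 5.65 units depending on the library, at an estimated depth of 8.22 to 36.6 M reads. Every gene that was compared across groups was tested with limma on log2(unit + 1), and a change "passed" when its adjusted p (Benjamini-Hochberg over all genes tested) was under 0.05 and its size over 1 on the log2 scale. This scale understates the change of genes with low values.

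The 7 genes lie at 6 places of the mm9 genome, and the annotation shows no other gene overlapping any of them. Cdkn2a (chr4:88920377-88940557) and Cdkn2b (chr4:88952198-88956941) are neighbours on the minus strand, 11640 bases apart, and Cdkn2c (chr4:109333481-109339794) is further along the same chromosome. Cdkn2d is at chr9:21092907-21095653, Cdkn1a at chr17:29227924-29237667, Cdkn1b at chr6:134870419-134875531 and Cdkn1c at chr7:150644255-150646955, the last inside an imprinted domain. In Cdkn2a, the first exon of the transcript annotated as Cdkn2a-001 is at chr4:88927890-88928096 and that of Cdkn2a-201, farther upstream, is at chr4:88940238-88940523, and both join the same second exon at chr4:88922549-88922889. The deposited value sums all transcripts of Cdkn2a, so those for p16Ink4a and for ARF cannot be told apart. Which exons the Ink4a/Arf-/- allele lacks is not given in the sources used here.

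The 250 bases before the annotated starts of Cdkn2b and Cdkn1a are shown because Cdkn2b had the largest Dox effect and Cdkn1a was the member whose Dox effect differed between lines past the threshold. They are RefSeq sequences on GRCm38.p6, written 5′ to 3′ on the gene's own strand. Capitals mark TGACGTCA (the cAMP response element, a motif chosen with the sequence in view) in Cdkn2b, p53 half-sites before the first start of Cdkn1a, and GGGCGG (the GC box) before its second start.
Cdkn2b, chr4:89311033-89311282, minus strand: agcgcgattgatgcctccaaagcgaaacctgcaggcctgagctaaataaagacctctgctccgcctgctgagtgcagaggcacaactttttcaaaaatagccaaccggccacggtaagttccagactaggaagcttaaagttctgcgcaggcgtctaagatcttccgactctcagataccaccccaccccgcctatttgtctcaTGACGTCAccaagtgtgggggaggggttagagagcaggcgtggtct
Cdkn1a, first start, chr17:29090729-29090978, plus strand: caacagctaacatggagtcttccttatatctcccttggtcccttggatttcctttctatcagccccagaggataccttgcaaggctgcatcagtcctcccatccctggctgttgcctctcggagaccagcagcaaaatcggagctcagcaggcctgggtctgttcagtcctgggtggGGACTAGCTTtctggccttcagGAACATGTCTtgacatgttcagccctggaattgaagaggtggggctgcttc
Cdkn1a, second start, chr17:29093519-29093768, plus strand: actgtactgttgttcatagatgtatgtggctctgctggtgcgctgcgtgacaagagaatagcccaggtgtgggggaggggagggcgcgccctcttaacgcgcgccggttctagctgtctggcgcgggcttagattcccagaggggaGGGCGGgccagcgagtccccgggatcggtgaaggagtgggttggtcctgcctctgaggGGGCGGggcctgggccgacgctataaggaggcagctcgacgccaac

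Both strands were searched in all 32851 mouse promoter windows of 250 bases. TGACGTCA begins at -46 before the Cdkn2b start and is held by 1.55% of windows. The p53 half-sites begin at -73 and -51 before the first Cdkn1a start, and 7.13% of windows hold at least 1 such match. Among the other members Cdkn2d has such a match, at -102. GGGCGG begins at -104 and -46 before the second Cdkn1a start and is held by 32.7% of windows. It also stands before a start of Cdkn2a, Cdkn2c, Cdkn2d and Cdkn1b. The E box CACGTG, the motif that MYC and its partner MAX bind, is held by 6.02% of windows and by none of the 9 windows available for 6 of the 7 members. Matches are letters in a window and say nothing of binding. Cdkn1c had no entry.

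The engineered genes were checked first. Vhl averaged 451 units with Dox in the MYC-2983 line, against 13.1 in VM-3055 and 12.7 in the VIM-3039 line, and 499 units in MYC tumours, 53.6 in VM tumours, 252 in VIM tumours and 686 in normal kidney. The mouse Myc row was lower with Dox in all 3 lines (log2 change -1.44 in the MYC, -1.83 in the VM and -1.96 in the VIM line). Whether reads of the transgene are counted in that row is not given in the sources used here. Of 8 renal epithelial markers, Cdh16 and Pax8 were present in every group, with group means of at least 3483 and 1083 units. They do not describe the list as a whole. With Dox, Cdh16 (log2 change -1.37) and Krt8 (-3.68) passed downward in VM-3055 cells. In VIM-3039 cells Krt8 (-2.15), Krt18 (-1.44) and Krt19 (-1.29) passed downward and Cdh1 passed upward. The study reports decreased Cdh1 in VIM-3039 cells, but it set that line beside VM-3055 cells. That is a different comparison from the Dox effect given here. The proximal tubule markers summed to between 197775 and 232446 units in normal kidneys, 1773 to 10506 in tumours and 3805 to 8265 in cells, and Slc34a1 was at 0 or near it in the cells. Tumours and kidneys are mixtures, in which fewer cells of a type and less RNA per cell cannot be told apart.

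Set side by side per kilobase of annotated exon, Cdkn2a was the most abundant CDK inhibitor in the groups labelled with an intact Cdkn2a locus, normal kidney excepted, although the MYC tumour mean rests on 1 library. Its share of the summed level per kilobase of the 7 genes was 80.0% with Dox and 76.7% without in MYC-2983 cells, 77.7% and 72.5% in VM-3055 cells, 39.0% in MYC tumours and 60.7% in VM tumours. In VIM-3039 cells it was 1.33% under either condition, in VIM tumours 1.91%, and in normal kidney 0.164%. In the VIM samples Cdkn1a led instead, with 55.98% and 41.1% of the per-kilobase sum in cells with and without Dox and 44.97% in tumours, and Cdkn2b took 19.2%, 29.0% and 16.3%. Normal kidney was led by Cdkn1b with 35.5%, then Cdkn2c with 20.5%, Cdkn1c with 17.99% and Cdkn2d with 16.1%. These shares are descriptions of group means.

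**Figure D1:**
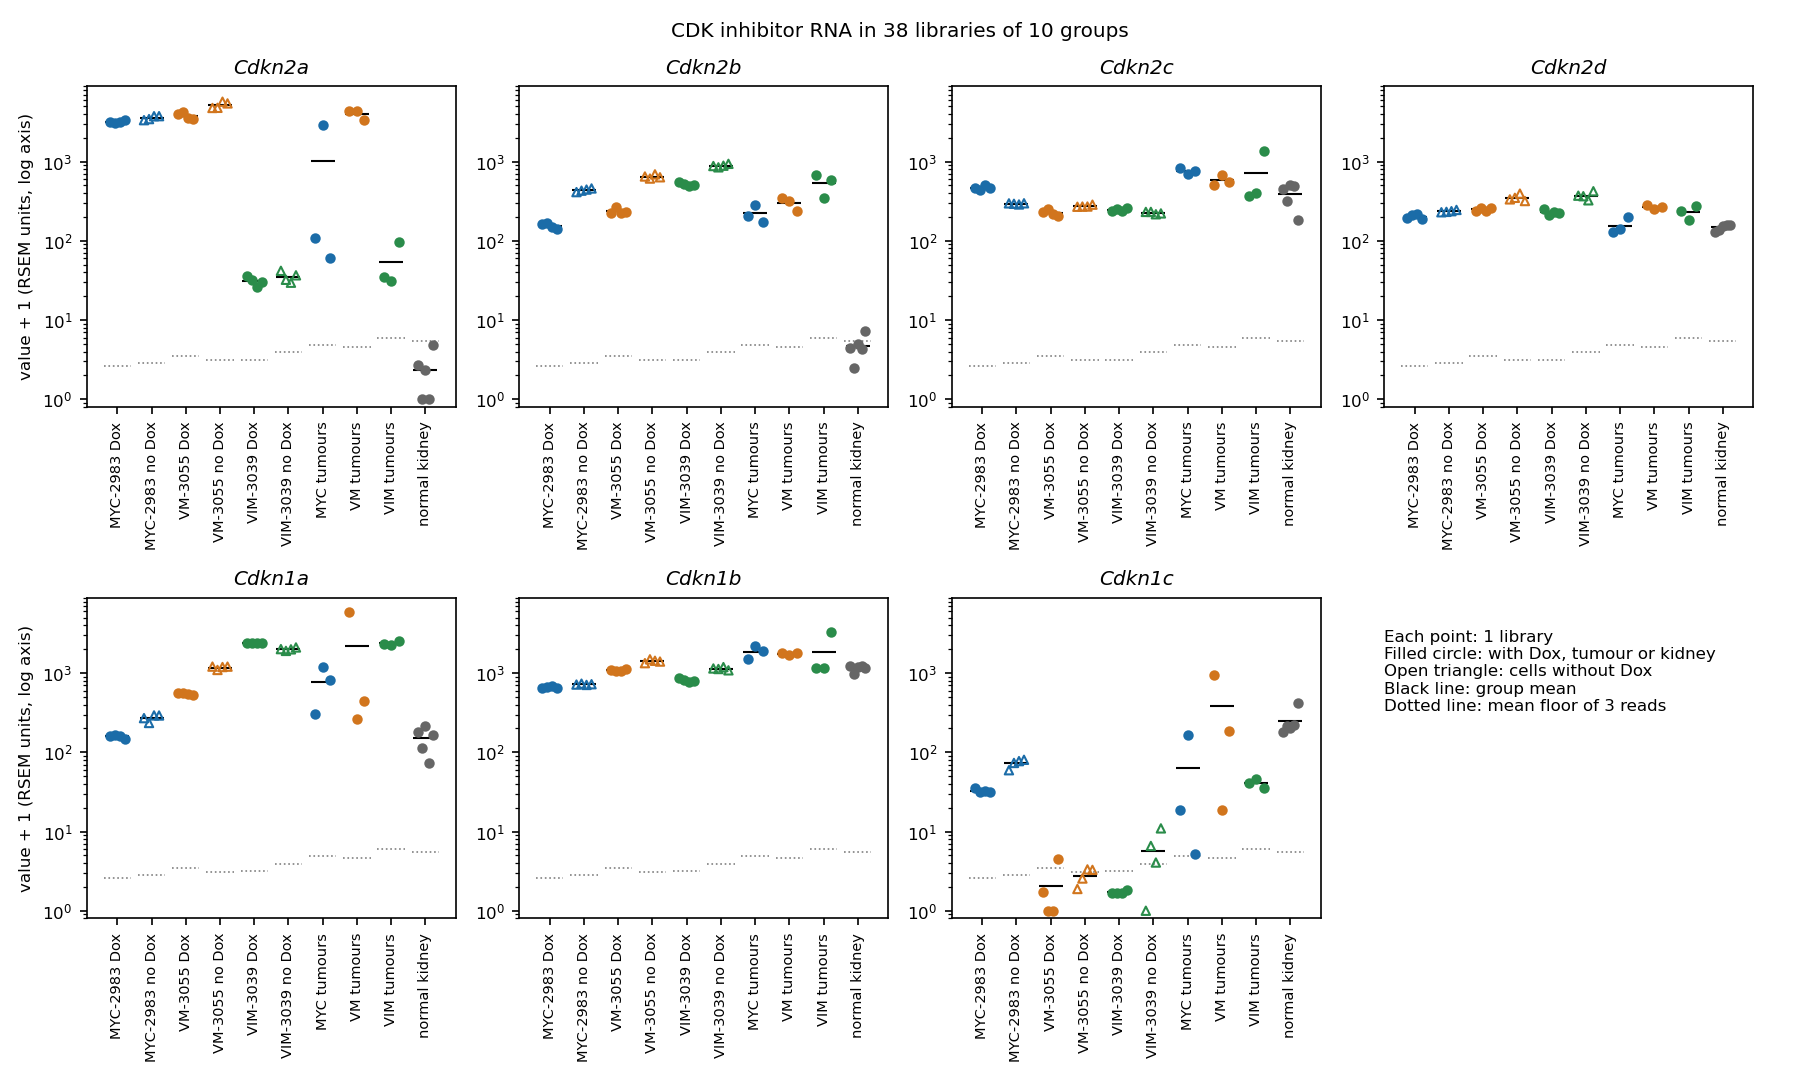
Levels of the 7 CDK inhibitors in every library, as unit + 1 on a log axis, by group on the horizontal axis; each point is 1 library, open triangles are cells without Dox, black lines are group means and dotted lines the mean floor of 3 reads. Cdkn2a is at 3056 units or more in the MYC-2983 and VM-3055 libraries and at most 40.8 in the VIM-3039 libraries, and Cdkn1c is at most 9.95 in both Vhl-deleted lines.

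**Figure D2:**
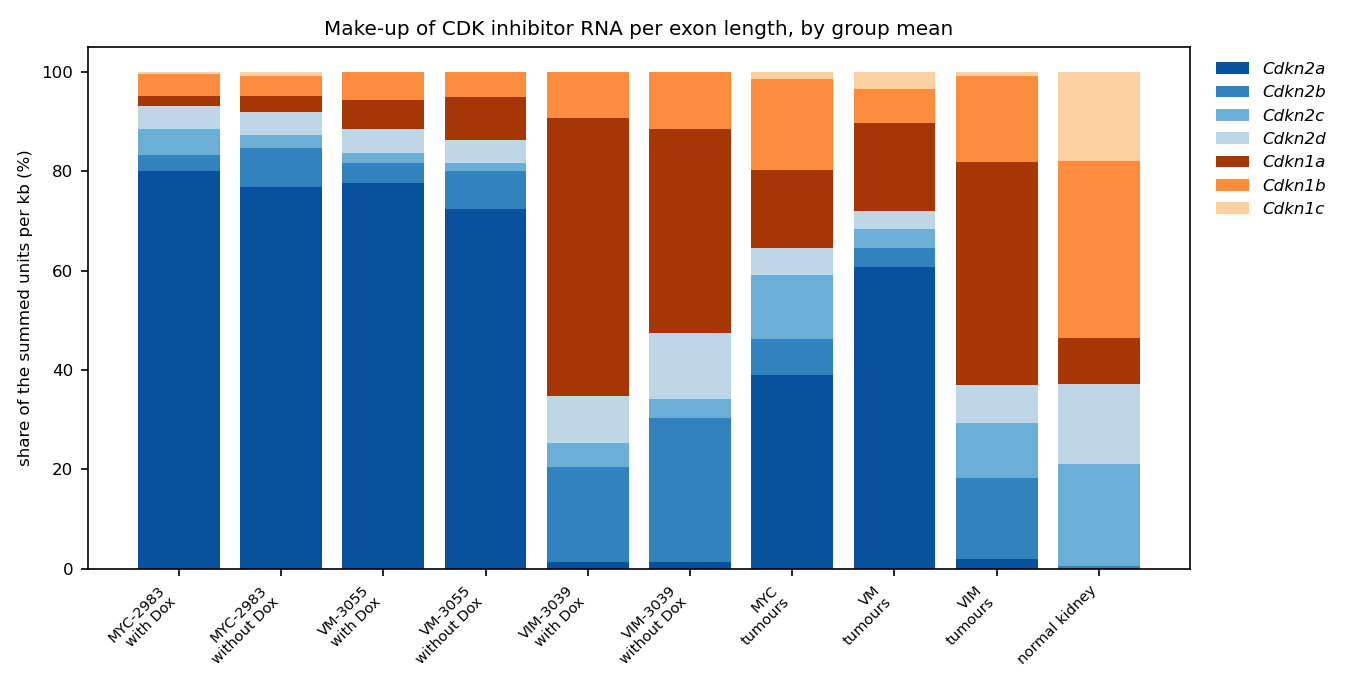
Share of each CDK inhibitor in the summed level per kilobase of exon (percent, bars stacked to 100) in each of the 10 groups, from group means. Cdkn2a takes 72.5% to 80.0% in the MYC-2983 and VM-3055 cells, and Cdkn1a 41.1% to 55.98% in the VIM-3039 cells.

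Cdkn2a was read in every library of the 9 tumour and cell groups and hardly at all in normal kidney. MYC-2983 cells had 3162, 3056, 3161 and 3306 units with Dox (3171 ± 102, SD, n = 4) and 3332, 3439, 3739 and 3744 without (3564 ± 210, n = 4). VM-3055 cells had 4030, 4190, 3524 and 3473 with Dox (3804 ± 360, n = 4) and 4752, 4772, 5701 and 5425 without (5162 ± 476, n = 4), the highest group of the 10. VIM-3039 cells had 34.7, 31.2, 24.9 and 29.1 with Dox (29.98 ± 4.09, n = 4) and 40.8, 31.2, 28.6 and 35.7 without (34.1 ± 5.36, n = 4). The VIM-3039 libraries thus lay far below those of the other lines and above every kidney. VM tumours had 4298, 4347 and 3392 units (4013 ± 538, n = 3), near the 3473 to 5701 of the VM-3055 cells. The MYC tumours split, with 2872 units in replicate 2 against 108 in replicate 1 and 59.3 in replicate 3. Replicates 2 and 3 carry the same mouse number, and the value of replicate 2 is close to the 3056 to 3744 units of the MYC-2983 cells. VIM tumours had 33.9, 30.1 and 95.5 units (53.1 ± 36.7, n = 3), and their range overlapped that of the MYC tumours. Normal kidneys had 1.73, 0, 1.34, 0 and 3.80 units, 4 of them at or under the floor and 5 reads in all, which corresponds to 1.46 units with an exact Poisson 95% interval of 0.475 to 3.42. On this interval, which covers counting error only, VM tumours stood 2740 times above normal kidney (1174 to 8439) and VIM tumours 36.3 times (15.6 to 112).

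Cdkn2b, which encodes p15Ink4b, was higher in VIM-3039 cells than in the other lines under the same Dox condition. In every cell line it was lower with Dox. MYC-2983 cells had 160, 169, 148 and 142 units with Dox (155 ± 12, n = 4) and 411, 428, 442 and 457 without (435 ± 19.7, n = 4). VM-3055 cells had 220, 265, 225 and 229 with Dox (235 ± 20.3, n = 4) and 647, 610, 689 and 633 without (645 ± 33.5, n = 4). VIM-3039 cells had 544, 515, 494 and 502 with Dox (514 ± 21.9, n = 4) and 878, 845, 886 and 936 without (886 ± 37.5, n = 4), the highest of all groups. Within each line the libraries with and without Dox did not overlap. MYC tumours had 207, 285 and 169 units, VM tumours 346, 319 and 236, and VIM tumours 684, 342 and 589, so VIM tumours overlapped VM tumours by a single library at the low end. Normal kidneys had 3.46, 1.46, 4.02, 3.26 and 6.33 units, 13 reads in all. That corresponds to 3.81 units (2.03 to 6.51), and the tumour means were 57.97 (33.9 to 109), 78.8 (46.1 to 148) and 141 (82.7 to 266) times higher in MYC, VM and VIM tumours.

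Cdkn2c, which encodes p18Ink4c, and Cdkn2d, which encodes p19Ink4d, were present in every library at 127 units or more. Cdkn2c in MYC-2983 cells had 469, 432, 509 and 457 units with Dox and 296, 292, 287 and 297 without, so every library with Dox was above every library without. VM-3055 cells had 231, 250, 216 and 205 with Dox and 268, 270, 270 and 285 without, and VIM-3039 cells had 238, 248, 240 and 257 with Dox and 231, 231, 215 and 221 without. MYC tumours had 832, 696 and 764 units, VM tumours 510, 676 and 554, VIM tumours 367, 395 and 1366, and normal kidneys 453, 318, 511, 497 and 182. All 3 MYC tumours lay above every normal kidney, as did VM replicates 2 and 3 and VIM replicate 3.

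Cdkn2d had 192, 208, 218 and 188 units in MYC-2983 cells with Dox and 228, 231, 236 and 244 without. VM-3055 cells had 238, 255, 235 and 261 with Dox and 333, 348, 393 and 317 without, and VIM-3039 cells had 250, 212, 228 and 226 with Dox and 370, 365, 323 and 421 without. Every library with Dox was below every library without Dox of the same line. In MYC-2983 cells the Cdkn2d difference was small, a log2 change of -0.22 beside a median of -0.13 over all genes. It ran from -0.26 to -0.03 under other scalings, filters and sets of libraries. MYC tumours had 127, 139 and 198 units, VM tumours 282, 249 and 264, VIM tumours 234, 183 and 274, and normal kidneys 128, 136, 153, 158 and 157, so the VM and VIM tumours lay above all kidneys and the MYC tumours did not.

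Cdkn1a, which encodes p21, a p53 target, differed between the lines in every library. MYC-2983 cells had 160, 163, 159 and 148 units with Dox (157 ± 6.59, n = 4) and 269, 234, 291 and 291 without (271 ± 27, n = 4). VM-3055 cells had 563, 562, 546 and 525 with Dox (549 ± 17.9, n = 4) and 1206, 1094, 1191 and 1205 without (1174 ± 53.9, n = 4). VIM-3039 cells had 2384, 2389, 2388 and 2395 with Dox (2389 ± 4.56, n = 4) and 2006, 1905, 1993 and 2105 without (2002 ± 81.9, n = 4), and there the libraries with Dox were the higher ones. VIM tumours had 2307, 2254 and 2563 units (2375 ± 165, n = 3), close to the VIM-3039 cells. MYC tumours had 305, 1193 and 823. VM tumours were the most scattered group, with 5929 in replicate 1 against 265 and 449, so the mean of VM tumours rests on replicate 1. Normal kidneys had 180, 112, 214, 73.3 and 165 units, below every tumour library, and overlapping the MYC-2983 cells with Dox.

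Cdkn1b, which encodes p27Kip1, was expressed in every library at 653 units or more. MYC-2983 cells had 653, 663, 679 and 656 units with Dox and 715, 734, 708 and 723 without, VM-3055 cells had 1088, 1061, 1059 and 1125 with Dox and 1333, 1491, 1429 and 1397 without, and VIM-3039 cells had 866, 810, 774 and 804 with Dox and 1143, 1125, 1189 and 1083 without. In each line the libraries with Dox were all below those without. MYC tumours had 1505, 2167 and 1887 units, VM tumours 1788, 1667 and 1788, VIM tumours 1158, 1165 and 3271, and normal kidneys 1227, 984, 1182, 1220 and 1155. The VIM tumours overlapped the kidneys because of replicates 1 and 2.

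Cdkn1c, which encodes p57Kip2 and is expressed from the maternal allele, separated the MYC-2983 line from the other lines. MYC-2983 cells had 34.7, 30.5, 31.4 and 30.4 units with Dox (31.7 ± 2.01, n = 4) and 58.4, 72.4, 76.4 and 79.4 without (71.7 ± 9.29, n = 4). VM-3055 cells had 0.739, 0, 0 and 3.51 with Dox, 5 reads in all, and VIM-3039 cells had 0.694, 0.693, 0.656 and 0.808 with Dox, 4 reads in all. Without Dox, VM-3055 cells had 0.882, 1.55, 2.33 and 2.28 (11 reads) and VIM-3039 cells 0, 5.57, 3.06 and 9.95 (20 reads). The level with Dox in MYC-2983 cells was 30.8 times (13.2 to 94.7) that of VM-3055 cells and 44.8 times (17.5 to 164) that of VIM-3039 cells by counting error. Normal kidneys had 182, 216, 200, 222 and 421 units, MYC tumours 17.7, 165 and 4.24, VM tumours 945, 17.5 and 182, and VIM tumours 39.6, 45.1 and 34.9. All MYC and VIM tumours lay below all kidneys, whereas the VM tumours ran from far below to far above them.

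Ranked by group mean, Cdkn2a ran from VM-3055 cells without Dox through VM tumours, VM-3055 cells with Dox and the MYC-2983 cells to MYC tumours, then to the VIM groups and last to kidney, and 5 of its 9 pairs of neighbours in this order overlapped in range. Cdkn2b ran from VIM-3039 cells without Dox to kidney with 4 overlapping pairs, and Cdkn1a from VIM-3039 cells with Dox, VIM tumours and VM tumours to MYC-2983 cells with Dox and kidney with 6. The orders of Cdkn2c, Cdkn2d, Cdkn1b and Cdkn1c held 6, 8, 4 and 6 such overlaps. These counts are descriptions, since neighbours in a ranking are the groups closest in mean and overlaps were not counted for other genes.

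With Dox, Cdkn2b fell in MYC-2983 and VM-3055 cells, Cdkn1c in MYC-2983 cells and Cdkn1a in VM-3055 cells, and most other members differed by less than the size that passes. In MYC-2983 cells 2 members passed downward, Cdkn2b (log2 change -1.49 ± 0.0610, SE, adjusted p = 1.01e-13) and Cdkn1c (-1.14 ± 0.127, adjusted p = 1.79e-07), the latter at -0.96 with a pseudocount of 10 and -0.71 after quantile normalization, under the size that passes. In VM-3055 cells 2 passed downward, Cdkn2b (-1.46 ± 0.0699, adjusted p = 2.26e-12) and Cdkn1a (-1.10 ± 0.0506, adjusted p = 1.34e-12). In VIM-3039 cells only Cdkn1c passed (-1.27 ± 0.551, adjusted p = 0.0423), on 4 against 20 reads and with overlapping ranges, and the call was lost when any 1 of 7 of the 8 VIM-3039 libraries was left out (all but replicate 1 without Dox). Of all genes tested, 15%, 18.9% and 16.6% passed downward in the same 3 comparisons, so 2, 2 and 1 of 7 members are not far from the background. By adjusted p alone 7, 6 and 5 of the 7 members differed, against 75.5%, 73.8% and 75.3% of all genes. The median change of the 7 was -0.22, -0.49 and -0.48, beside -0.13, -0.26 and -0.15 over all genes tested.

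The smaller differences, past the adjusted p but not the size, varied in direction between members and lines. In MYC-2983 cells the log2 change was 0.67 ± 0.0495 for Cdkn2c (adjusted p = 5.52e-10, limma) and -0.78 ± 0.0716 for Cdkn1a (adjusted p = 1.32e-08). In VIM-3039 cells it was -0.78 ± 0.0461 for Cdkn2b (adjusted p = 9.89e-13), -0.68 ± 0.0772 for Cdkn2d (adjusted p = 5.22e-08), -0.48 ± 0.0424 for Cdkn1b (adjusted p = 1.02e-09) and 0.26 ± 0.0332 for Cdkn1a (adjusted p = 4.51e-07). In VM-3055 cells Cdkn2d was at -0.49 (adjusted p = 1.89e-05), Cdkn1b at -0.38 (adjusted p = 7.63e-07) and Cdkn2c at -0.28 (adjusted p = 0.00367). Cdkn2a was at -0.17 in MYC-2983 and -0.44 in VM-3055 cells, and its change of -0.18 in VIM-3039 cells missed the threshold (adjusted p = 0.396). Changes of this size move with the scaling, since the median of all genes was itself below 0. After TMM rescaling, which brought that median to -0.03, -0.06 and -0.02, Cdkn2a changed by -0.05 in MYC-2983 and -0.23 in VM-3055 cells, Cdkn1b by -0.01 in MYC-2983 cells, Cdkn2c by -0.07 in VM-3055 cells and Cdkn1a by -0.88 in VM-3055 cells, under the size needed to pass.

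**Figure D3:**
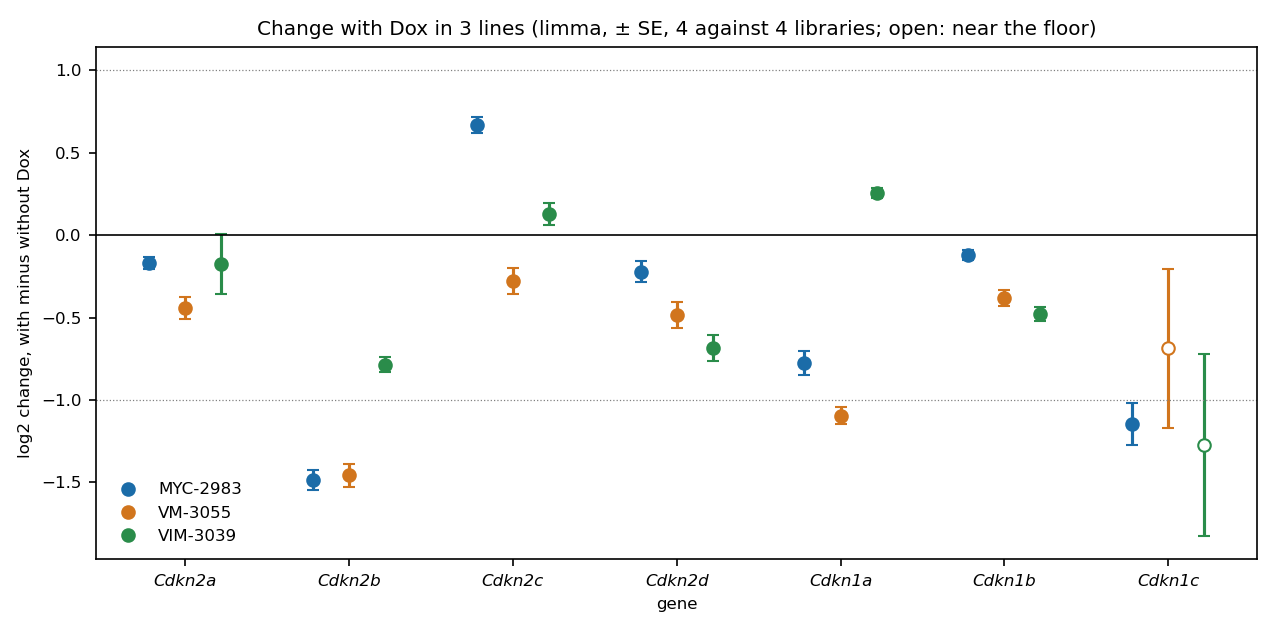
Change with Dox of each CDK inhibitor in the 3 lines, as log2 change with its standard error (limma, 4 against 4 libraries); values below 0 are lower with Dox and open circles mark Cdkn1c where it is near the floor of 3 reads. Cdkn2b is at -1.49, -1.46 and -0.78, and Cdkn1a lies below 0 in MYC-2983 and VM-3055 cells and above 0 in VIM-3039 cells.

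The Dox effect differed between lines most for Cdkn1a, which passed the test of the difference in 2 of the 3 line pairs. It was higher in VIM-3039 than in MYC-2983 cells by 1.03 ± 0.0754 (log2, adjusted p = 2.73e-10) and higher in VIM-3039 than in VM-3055 cells by 1.35 (adjusted p = 8.25e-14). The background for passing is 9.06% and 6.05% of genes in these comparisons, and 47.6% and 33.3% by adjusted p alone. No member passed between VM-3055 and MYC-2983 cells, where 8.78% of genes passed and 46.2% did so by adjusted p alone. Below the size threshold, the Dox effect on Cdkn2c in MYC-2983 cells exceeded that in VM-3055 cells by 0.95 (VM-3055 minus MYC-2983 -0.95, adjusted p = 2.45e-08), and Cdkn2b was less lowered in VIM-3039 cells than in MYC-2983 (difference 0.70, adjusted p = 1.01e-07) or VM-3055 cells (0.67, adjusted p = 1.49e-06). The Cdkn1a difference from MYC-2983 cells was 0.99 after TMM rescaling and 0.86 after quantile normalization, short of the size that passes, and it fell to 1.0, no longer passing, without MYC-2983 replicate 3 or 4 without Dox.

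Genes with which the inhibitors act were read against the share of all genes that passed upward with Dox, 4.49%, 5.92% and 7.67% in the MYC, VM and VIM lines, and downward, given above. Of 11 kinases and cyclins they bind, 1 passed upward in MYC-2983 cells, 5 upward and 1 downward in VM-3055 cells and 5 upward in VIM-3039 cells, with medians of 0.34, 0.53 and 0.57. Of 10 proliferation genes 1, 4 and 7 passed upward, none passed downward, and their medians were 0.70, 0.95 and 1.17. Of 11 RB and E2F genes, E2f2 passed upward in MYC-2983 cells (1.40), Rb1 downward in VM-3055 cells (-1.19), and E2f2 (1.25) and E2f8 (1.05) upward in VIM-3039 cells. Skp2, part of the ubiquitin ligase that marks p27Kip1 for degradation, rose by 1.39 in both VM-3055 and VIM-3039 cells. It is a single member of a longer list of p27 genes and does not describe that list. In VIM-3039 cells Cks1b (0.75) and Foxo1 (-0.49), for example, did not pass. Of 13 genes of the TGF-beta pathway and of MIZ1, a factor through which MYC represses Cdkn2b, 5, 6 and 6 passed downward in the 3 lines and none upward, with medians of -0.91, -0.96 and -0.95. The ligand gene Tgfb3 (-2.32, -1.80 and -2.18) and the receptor gene Tgfbr2 (-1.41, -1.78 and -1.20) fell in all 3 lines. Fibroblast and mural cell markers, mostly the smooth muscle actin gene Acta2, moved with Dox too, from sums of 67490 to 71904 units without Dox to sums of 15936 to 18687 with Dox in MYC-2983 cells, and from 4754 to 5305 without to 477 to 654 with Dox in VIM-3039 cells. In VM-3055 cells these markers summed to at most 50.1 units. Their part in the Cdkn1c level and the Dox effects was not tested.

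Of the Ink4-Arf locus regulators, 16 listed and 15 tested, Tbx2 (-1.13) and Ets1 (-1.01) passed in MYC-2983 cells and none passed in the other lines. Of 7 listed genes beside Cdkn2a and Cdkn2b, 5, 3 and 2 were tested in the MYC, VM and VIM lines, and of those none passed with Dox. Of 10 imprinted neighbours of Cdkn1c, 4 passed upward and 2 downward in MYC-2983 cells, 1 of 9 tested upward in VM-3055 cells, and 1 upward and 2 downward of 9 tested in VIM-3039 cells. Phlda2, which lies in the same domain and is also maternally expressed, rose in all 3 lines (3.35, 3.04 and 2.82), and Slc22a18 fell in MYC-2983 (-1.39) and VIM-3039 cells (-1.87). In the MYC-2983 cells H19 (2.39), Kcnq1ot1 (1.71) and Ascl2 (1.60) rose and Kcnq1 fell by 1.13, while H19 fell by 1.40 in VIM-3039 cells. The changes in VIM-3039 cells had wide standard errors, 0.348 for Phlda2, 0.460 for Slc22a18 and 0.441 for H19, beside 0.0302 for Nap1l4 of the same list.

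Between lines kept on Dox, Cdkn1a differed in all 3 pairs, Cdkn2a in both pairs with VIM-3039 cells and Cdkn1c in both pairs with MYC-2983 cells. Against MYC-2983 cells, VM-3055 cells had 3.47 times as much Cdkn1a (log2 1.80 ± 0.0532, adjusted p = 1.93e-12), less Cdkn2c (-1.05 ± 0.0693, adjusted p = 6.91e-09) and, near the floor, less Cdkn1c, so 3 of 7 passed where 24.6% of all genes did. VIM-3039 cells had 15.1 times as much Cdkn1a as MYC-2983 cells (3.92 ± 0.0375, adjusted p = 2.31e-17), 3.31 times as much Cdkn2b (1.73, adjusted p = 5.47e-12), less Cdkn1c and far less Cdkn2a (-6.69 ± 0.0791, adjusted p = 9.66e-17), so 4 of 7 passed against 23.9%. Against VM-3055 cells, VIM-3039 cells had 4.35 times as much Cdkn1a (2.12 ± 0.0345, adjusted p = 2.63e-17), 2.19 times as much Cdkn2b (1.13, adjusted p = 1.62e-10) and less Cdkn2a (-6.95 ± 0.0887, adjusted p = 1.82e-18), so 3 of 7 passed against 19.1%. Both counts for VIM-3039 cells include Cdkn2a, the locus deleted by design in VIM mice, so that call is not a finding about the members. Cdkn1b was lower in VIM-3039 than in VM-3055 cells (-0.41, adjusted p = 1.57e-07) and Cdkn2d differed by 0.30, 0.18 and -0.11 in the 3 pairs.

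These line differences depended on Dox for some members. Without Dox the excess of VIM-3039 over VM-3055 cells shrank to 0.77 for Cdkn1a and 0.46 for Cdkn2b, and Cdkn2a alone still passed. The Cdkn2c difference between VM-3055 and MYC-2983 cells was -0.10 without Dox. It was also below the size that passes after TMM rescaling (-0.90) and quantile normalization (-0.83).

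Cdkn1a shared its line difference with many p53 targets. Of 20 such targets other than Cdkn1a, 10 passed upward and 1 downward in VIM-3039 against MYC-2983 cells with Dox, where 5.66% of all genes passed upward and 18.3% downward, with a median of 0.80 beside -0.18 over all genes. Among them were Eda2r, a receptor of the TNF receptor family (5.0), Trp53inp1 (4.14), Phlda3 (3.03) and the cyclin gene Ccng1 (3.03). Against VM-3055 cells 11 passed upward and none downward, where 9.69% and 9.45% of all genes did, with a median of 1.11 beside 0.02, led by Ddit4l (7.96), Eda2r (7.14), Phlda3 (3.77) and Ccng1 (3.54). Between VM-3055 and MYC-2983 cells, where Cdkn1a also differed, 1 passed upward and 5 downward, where 6.54% and 18.1% of all genes did. Trp53 itself was higher in VIM-3039 cells by 3.26 against MYC-2983 and 3.99 against VM-3055 cells. Its means with and without Dox were 329 and 166 units in MYC-2983 cells, 197 and 227 in VM-3055 cells and 3142 and 2248 in VIM-3039 cells. Mdm2, which marks p53 for degradation and is its target, was higher by 1.47 and 1.36. The deposited values do not tell whether Trp53 transcripts carry mutations.

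With Dox itself, 7 of the 20 p53 targets passed downward and none upward in MYC-2983 cells, beside 15% and 4.49% of all genes. In VM-3055 cells 4 passed downward and none upward, and in VIM-3039 cells 3 downward and 1 upward (Eda2r, 1.39), shares near those of all genes (18.9% and 5.92%, then 16.6% and 7.67%). Their medians were -0.43, -0.43 and -0.02. The test of the difference between lines passed upward for Trp53inp1 (1.84), Eda2r (1.27), Phlda3 (1.10) and Btg2 (1.05) and downward for Pmaip1 (-1.0) in VIM-3039 against MYC-2983 cells, and for Trp53inp1 (1.95), Eda2r (1.80) and Ccng1 (1.15) against VM-3055 cells. The nucleolar protein gene Npm1 rose with Dox by 1.04, 1.80 and 1.98 in the 3 lines. The other genes listed with it as p53 and its regulators did not pass in VM-3055 or VIM-3039 cells. There Trp53 changed by -0.20 and 0.48, Mdm2 by -0.39 and 0.29 and Mdm4 by -0.13 and 0.16.

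**Figure D4:**
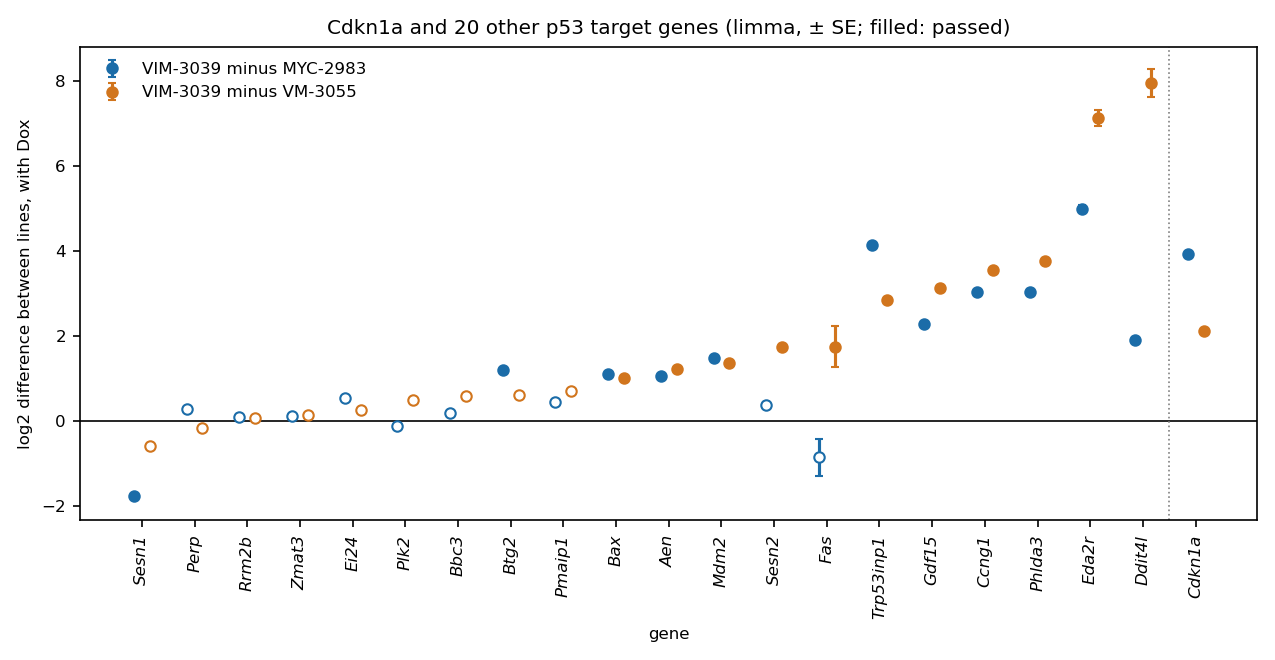
Line differences of Cdkn1a and 20 other p53 targets with Dox, as log2 difference with its standard error on the vertical axis (limma, 4 against 4 libraries) and genes on the horizontal axis; each colour is a pair of lines and filled points passed. Cdkn1a is at 3.92 and 2.12 and Eda2r at 5.0 and 7.14 for VIM-3039 against MYC-2983 and VM-3055 cells.

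Against normal kidney, Cdkn2a, Cdkn2b and Cdkn1a were higher in tumours of all 3 genotypes, and in each genotype the change of all 3 passed. MYC tumours passed in 5 members, Cdkn2a (6.75 ± 0.793, adjusted p = 0.000265), Cdkn2b (5.60 ± 0.495, adjusted p = 7.06e-05), Cdkn2c (1.08 ± 0.388, adjusted p = 0.0454) and Cdkn1a (1.97 ± 0.530, adjusted p = 0.0142) upward and Cdkn1c downward (-3.33 ± 0.377, adjusted p = 0.000223). Here the 2 libraries of mouse 2983 were averaged, so n was 2. VM tumours passed in 3, Cdkn2a (10.97 ± 0.561, adjusted p = 4.41e-07), Cdkn2b (6.07 ± 0.443, adjusted p = 3.63e-06) and Cdkn1a (2.67 ± 0.857, adjusted p = 0.0236). VIM tumours passed in 4, Cdkn2a (4.57 ± 0.653, adjusted p = 0.000297), Cdkn2b (6.87 ± 0.446, adjusted p = 3.84e-06) and Cdkn1a (4.08 ± 0.323, adjusted p = 9.99e-06) upward and Cdkn1c downward (-2.54 ± 0.314, adjusted p = 0.000124). Fitted folds of Cdkn2a and Cdkn2b against the near-empty kidney depend on the added 1. The ratios with counting intervals above do not, but those intervals leave out the spread between tumours. For Cdkn2a in MYC tumours this ratio was 692 (296 to 2131), on libraries that ran from 59.3 to 2872 units. The shares 5, 3 and 4 of 7 stood beside 37.4%, 39.8% and 39.6% of all genes, and the median changes of the 7 were 1.08, 0.86 and 0.67 beside 0.07, -0.05 and 0.01.

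Cdkn1b and Cdkn2d changed by less than the size that passes. Cdkn1b was higher by 0.60 in MYC (adjusted p = 0.0124) and in VM tumours (adjusted p = 0.00182), and by 0.51 in VIM tumours (adjusted p = 0.199). Cdkn2d was higher in VM tumours (0.86 ± 0.190, adjusted p = 0.00363) and VIM tumours (0.64, adjusted p = 0.0348), and the MYC tumour change was -0.01. Cdkn1a in VM tumours was 1.30 (adjusted p = 0.0285) without replicate 1, and lost its call under 5 of 19 alternatives, with no filter (adjusted p = 0.0823), with voom (adjusted p = 0.073), against the KT or the B6 kidneys alone (adjusted p = 0.0514 and 0.233) and without kidney replicate 4 (adjusted p = 0.0513). The Cdkn2c call in MYC tumours was lost under 11 of 20 alternatives, TMM and quantile scaling included, and among them without MYC tumour replicate 1 or 3 or kidney replicate 1, 2 or 5, with changes of 0.83 to 1.16. The Cdkn1a call there was lost under 3 of 20. These were no filter, all 4 tissue groups in 1 fit, and the B6 kidneys alone (1.48, adjusted p = 0.105). Cdkn1c in VM tumours (-0.68 ± 0.985, adjusted p = 0.585) was -2.02 without replicate 1 and passed, and 0.81 without replicate 2.

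**Figure D5:**
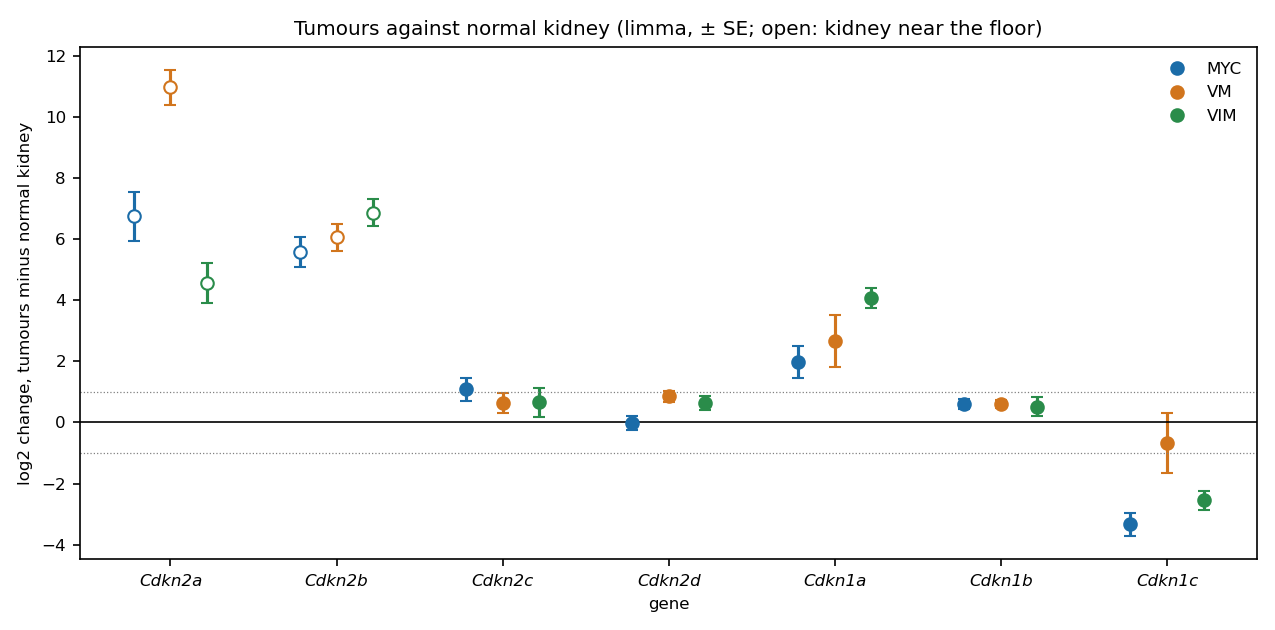
Difference of each CDK inhibitor from normal kidney in tumours of 3 genotypes, as log2 change with its standard error (limma; 2 MYC mice, 3 VM, 3 VIM, 5 kidneys); open circles mark Cdkn2a and Cdkn2b, whose kidney level is near the floor. Cdkn1a is at 1.97, 2.67 and 4.08, and Cdkn1c is at -3.33, -0.68 and -2.54 in MYC, VM and VIM tumours.

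Cell makeup differed between tumours and kidneys beside these changes. The podocyte markers, 6 genes, summed to 4320 to 11790 units in kidneys and 824 to 3586 in tumours, with the podocyte gene Nphs1 at a mean of 432 in kidney and of 7.31, 0 and 3.55 in MYC, VM and VIM tumours. Podocytes express Cdkn1c. In cells the same 6 markers summed to 2455 to 3962 units in the MYC-2983 line, 3398 to 4518 in the VM-3055 line and 570 to 1947 in the VIM-3039 line, mostly from Podxl (group means of 473 to 4306 units) and Synpo (28.9 to 1273), while Nphs1 was at 0 in all cell libraries. Leukocyte markers summed to 964 to 4727 units in tumours and 906 to 2040 in kidneys. The part of these cells in the Cdkn1c result was not tested.

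Of all genes 18.8%, 17.3% and 18.9% passed upward and 18.6%, 22.5% and 20.7% downward in MYC, VM and VIM tumours. Among partners of the inhibitors, 9, 7 and 7 of 11 kinases and cyclins were higher and 1, 2 and 1 lower in MYC, VM and VIM tumours than in kidney, with medians of 2.23, 2.31 and 2.15, and all 10 proliferation genes were higher in each, with medians of 5.57, 5.58 and 5.15. RB and E2F genes were higher in 4, 5 and 4 of 11, led by E2f7 and E2f8 (3.58 to 5.14), and none was lower. Of the p27 degradation genes, Cks1b was higher by 4.06 to 4.58 and Skp2 by 2.73 to 3.22. The polycomb gene Ezh2, whose complex silences the Ink4-Arf locus, was higher by 2.57, 2.27 and 2.40, and the repressor Tbx2 was lower (-5.21, -3.18 and -5.14). Mtap, a neighbour of Cdkn2a, was higher by 1.82, 1.91 and 1.70. From Cks1b to Mtap, the genes named are single members of longer lists and do not describe those lists as a whole. Of the p53 targets 6, 5 and 12 of 20 were higher and 4, 3 and 2 lower, with medians of -0.12, 0.30 and 1.51. Trp53 averaged 2009 units in MYC, 724 in VM and 1046 in VIM tumours and 394 in kidney.

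Between tumour genotypes the number of genes that passed depended on the fit. VM and MYC tumours differed in 0 of 16085 genes (0% called), though 2110 had an unadjusted p under 0.05 in limma and limma voom on recovered reads also called 0 with 2255 under 0.05. Cdkn2a was 4.23 ± 0.527 higher in VM tumours (adjusted p = 0.135), and 5.62 higher, passing, without MYC replicate 2. VIM and MYC tumours differed in 1 gene of 16246 (0.00616% called), Ftcd (5.31, adjusted p = 0.0160), named because it was the single call (voom called 0), and in no member, while 2361 genes had an unadjusted p under 0.05. Cdkn1a differed by 2.11 (adjusted p = 0.228) and Cdkn2b by 1.27 (adjusted p = 0.274). VIM and VM tumours differed in 40 genes (0.249% called), with Cdkn2a among them (-6.40 ± 0.440, adjusted p = 0.00191). The 40 became 2 without VIM replicate 1, 3 without VIM replicate 2, 17, 2 and 7 without VM replicates 1, 2 and 3, and 15 with voom. With all 4 tissue groups in 1 fit, 337, 669 and 477 genes passed for VM against MYC, VIM against MYC and VIM against VM tumours, and with the libraries of mouse 2983 kept separate 33 and 7 passed in the comparisons with MYC tumours.

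Across the 10 group means the 7 inhibitors did not share a single pattern. The closest pairs were Cdkn2b with Cdkn2d (r = 0.73) and Cdkn2b with Cdkn1a (r = 0.72), and the most opposed were Cdkn2b and Cdkn1c (r = -0.57). These are Pearson correlations of log2 means, given as descriptions, of points that share lines, mice and culture. Of 12048 genes compared, those most like each member were Capza1 (0.969), Iqcb1 (0.959) and Zzz3 (0.939) for Cdkn2a, Bag2 (0.971), Tnfrsf12a (0.963) and Rbm20 (0.953) for Cdkn2b, Oat (0.960), Wfdc1 (0.956) and C1rb (0.956) for Cdkn2c, and Mfge8 (0.937), Pafah1b3 (0.910) and Uba3 (0.908) for Cdkn2d. For the CIP/KIP genes they were Krt19 (0.942) and Ddit4 (0.938) for Cdkn1a, Nelf (0.969), Zfp385b (0.966) and 4930404N11Rik (0.948) for Cdkn1b, and Clec16a (0.979), C1qtnf3 (0.968) and Sntb1 (0.966) for Cdkn1c.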

How the data were processed

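Libraries were made from total RNA with a stranded mRNA kit and sequenced from both ends. The authors aligned the reads to mm9 and, per the labels and the study's methods, used MapSplice, Picard 1.64, SAMtools and RSEM to estimate gene values over UCSC known genes. The deposited signal values are these estimates scaled by the authors to an upper quartile of 1000 per library, and they are neither counts nor corrected for gene length. All 38 columns were used, and the 3235 genes at 0 in every library stayed out of the tests.

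The members and the gene lists were chosen with earlier results of these data known. Members were named by rule, and other genes only from the lists fixed with them or by likeness (the 3 highest correlations among genes whose highest group mean was at least 50 units). Some genes these rules would name are not reported here. Values were tested as log2(unit + 1) with limma 3.58.1 in R 4.3.3 (two-sided, eBayes with trend, groups compared only), on genes above 0 in at least 4 libraries of cells or 2 samples of tissue. Libraries of 1 mouse were averaged. Steps of low values gave the worth of 1 read and so the depth: below 20 reads, 94.1% to 95.9% of values per library came out whole within 0.02 reads. Intervals are exact Poisson at 95% and cover counting error only. Lengths and positions are from GENCODE on NCBIM37 (mm9), promoters from RefSeq on GRCm38.p6. Alternatives were other pseudocounts (0.1 and 10), filters, TMM and quantile scaling, no trend, limma voom on recovered reads, the replicate block and leaving out libraries. The scripts were tested on simulated data. Analyses used Python 3.11.15 with pandas 2.3.3, scipy 1.17.1 and matplotlib 3.10.9.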

Additional observations from a re-analysis of the deposited data

Results flagged for a closer look

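Of 49 sets, each 1 member in 1 group of 4 or 5 libraries, tested for a value far from the others, 3 held one, where chance gives about 1 in 20. Cdkn2c had its highest VM-3055 library without Dox at 285 units, Cdkn1a its lowest such library at 1094 units, and Cdkn1c its highest normal kidney at 421 units.

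The Dox effect differed between lines (limma interaction, adjusted p under 0.05) in 13 cases. From MYC-2983 to VM-3055 cells the difference was -0.27 for Cdkn2a, -0.95 for Cdkn2c, -0.26 for Cdkn2d, -0.32 for Cdkn1a and -0.26 for Cdkn1b. From MYC-2983 to VIM-3039 cells it was 0.70 for Cdkn2b, -0.54 for Cdkn2c, -0.46 for Cdkn2d, 1.03 for Cdkn1a and -0.36 for Cdkn1b. From VM-3055 to VIM-3039 cells it was 0.67 for Cdkn2b, 0.41 for Cdkn2c and 1.35 for Cdkn1a. Cdkn1a passed the size threshold in both comparisons with VIM-3039 cells and no other member did.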

How the results depend on the processing

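Of 105 changes of members (7 genes in 15 comparisons), 17 changed sign under some alternative, and none of those had passed. Of 30 that passed, 19 passed under every alternative and 11 lost the call under at least 1. The count of members that passed stayed within 1.5 times in 257 of 289 alternatives.

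The count in MYC-2983 cells with Dox went from 2 to 1 with a pseudocount of 10 and with quantile normalization, where Cdkn1c was -0.96 and -0.71. In VM-3055 cells it went from 2 to 1 under TMM and quantile scaling and ranged from 2 to 3 with a library left out. In VIM-3039 cells it was 0 with either other pseudocount (0.1, 10), with no filter or a stricter one (mean of 10 units), and with TMM, quantile scaling, no trend or voom, and 0 to 1 with a library left out. The VIM-3039 against VM-3055 count was 1 in cells without Dox instead of 3, where Cdkn2c was -0.28 and Cdkn2d 0.09, opposite in sign to their values with Dox. The interaction of VIM-3039 with MYC-2983 went from 1 to 0 with a pseudocount of 10, TMM and quantile scaling, and 0 to 1 with a library left out (without MYC-2983 no-Dox replicate 3 or 4). The MYC tumour count was 3 instead of 5 with no filter, all 4 tissue groups in 1 fit and the B6 kidneys alone. VM against MYC tumours had 1 instead of 0 when all 4 tissue groups were fitted, and 0 to 1 with a library left out. VIM against VM tumours had 0 instead of 1 with no filter and 1 to 2 with a library left out. Cdkn2a with Dox in VIM-3039 cells was 0.42 under quantile scaling. Cdkn2d in MYC tumours was 0.02 with voom, 0.06 with mouse 2983 as separate samples, 0.05 with B6 kidneys and -0.13 to 0.18 with a library left out. Cdkn1c in VM tumours was -2.02 to 0.81 with a library left out. The cause of these changes was not tested.

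Scaling moved the median of all genes with Dox from -0.13, -0.26 and -0.15 to -0.03, -0.06 and -0.02 (TMM), and the share of higher calls from 23.0% to 42.0%, from 23.8% to 48.5% and from 31.6% to 49.3% under quantile scaling. Replicate numbers did not pair the samples: libraries of VM-3055 with and without Dox correlated at -0.307 to -0.0463 by number and those of VIM-3039 at -0.0622 to 0.108. The replicate block gave 3572 genes instead of 3554 for VM-3055 Dox, 3397 instead of 3396 for VIM-3039 Dox and 2696 instead of 2691 for VIM-3039 against VM-3055 cells, and left member counts at 2, 1 and 3, with 1 for the interaction of these lines. Values under 3 reads are limited by depth.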
